A study of Mus musculus with 42 samples.

Results

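The genes described here encode the proteins of the cytosolic ribosome, the particle that translates messenger RNAs made in the nucleus. They were chosen by name alone: platform symbols that begin with Rpl or Rps followed by a digit or a p, leaving out pseudogene symbols and the S6 kinases (Rps6k), and with a value on both arrays of at least 15 of the 21 tumours. The platform held 77 probes with 70 such symbols. Of these, 71 probes for 66 genes met the minimum, among 7629 genes tested in all. They comprised 38 proteins of the large subunit, 22 of the small subunit, and 6 paralogues or associated genes (Rpl22l1, Rpl36al, Rpl39l, Rpl7l1, Rps19bp1 and Rps27l). The 4 symbols that fell short were Rpl37, with values on both arrays of 6 tumours, Rpl3l and Rps4l with 8 each, and Rps23rg1 with 5. All 21 tumours were measured for 65 members, and 20 for Rps13.

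The samples were 42 two-colour oligonucleotide arrays of RNA from 21 mouse mammary tumours. The tumours descended from neoplasms of FVB/N-Tg(WapMyc)212Bri mice, in which the Wap promoter, active in milk-secreting mammary epithelium, drives a c-Myc transgene. Passage through mice had yielded glandular lines, solid or comedo lines (some of them metastasising to the lung) and spindle-cell lines. The labels give each tumour's number but not its line, and no age or treatment, so every tumour is a group of its own and tumours of a single line may not be independent. All carried the transgene, and all were set against the same universal mouse reference RNA. Each tumour was hybridised on 2 arrays with the dyes exchanged, and these are repeats of a single RNA.

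Values are log2 ratios, turned so that both arrays of a tumour run the same way. The deposited ratios of a pair correlated between -0.565 and 0.0743 over probes before turning, with 20 of 21 pairs below 0, and over the members alone between -0.048 (tumour 647) and 0.816 after it, with a median of 0.641. The sign of all values was chosen to make Myc's median positive, which is no evidence of direction, so "above the reference" below could be turned for all genes at once. The F tests between tumours and the slopes on another gene do not depend on it, but the order of the tumours does: with the sign turned, the highest tumour becomes the lowest. On the deposited scale the median of an array over all its probes ran from -1.38 to 1.22. A centred value has that median subtracted and reads as a level relative to the median probe of the array. In bulk tissue, fewer cells of a type and less RNA per cell cannot be told apart.

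A cytosolic ribosome holds a single copy of most of its proteins, and cells make them in matched amounts. Many of their messenger RNAs begin with a run of pyrimidines (C or T in the DNA) known as the terminal oligopyrimidine tract, through which mTOR signalling sets their translation. Myc is known to raise ribosome production, through ribosomal RNA synthesis, assembly factors and the ribosomal protein genes themselves, and it binds DNA at the E-box, CACGTG. Several ribosomal proteins also have duties off the ribosome: free Rpl5 and Rpl11 bind Mdm2 and stabilise p53, and Rps6 is the classical substrate of the S6 kinases.

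RefSeq start sites on GRCm38.p6 were at hand for 55 of the 66 members, in windows of 300 bases from 250 before to 50 after the start. The palindrome CACGTG, which reads the same on both strands, lay in the window of 6 members (10.9%) and of 8.09% of all 27025 genes with a window, counting a gene where any of its starts had it. A run of at least 6 C or T on the sense strand reaching within 5 bases of the start was found in 26 members (47.3%) and in 24% of all genes, and a run of at least 8 in 20 members (36.4%) and in 11.4% of all genes. The longest runs were those of Rpl7a (21 bases), Rpl27a and Rpl34 (20 each) and Rpl35 (18). The E-box of Rpl23 began 3 bases before its start and spanned it, and those of Rpl13a, Rpl14, Rpl19, Rpl34 and Rps19 began between 19 and 233 bases before theirs. Below are 65 bases, from 45 before to 20 after the start, for 6 members on which the results turn and for Rpl5, whose levels followed those of the other members most closely. Rpl32, Rplp1 and Rps20 were not among the 55. Capitals mark the E-box or the C and T run, where either is present. A match of letters is a description and says nothing about binding.
Rpl23, chr11:97782420-97782484, minus strand: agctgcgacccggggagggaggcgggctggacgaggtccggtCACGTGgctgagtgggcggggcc
Rpl27a, chr7:109519150-109519214, plus strand: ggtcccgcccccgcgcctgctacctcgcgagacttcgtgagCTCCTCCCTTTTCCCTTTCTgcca
Rps27l, chr9:66946041-66946105, plus strand: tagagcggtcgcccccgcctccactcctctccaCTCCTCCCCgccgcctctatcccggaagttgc
Rpl36al, chr12:69184048-69184112, minus strand: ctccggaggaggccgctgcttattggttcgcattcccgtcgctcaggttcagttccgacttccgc
Rpl22l1, chr3:28805463-28805527, plus strand: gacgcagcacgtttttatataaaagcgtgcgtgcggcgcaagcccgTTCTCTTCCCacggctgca
Rpl13a, chr7:45128726-45128790, minus strand: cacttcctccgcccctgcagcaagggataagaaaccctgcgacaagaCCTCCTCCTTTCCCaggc
Rpl5, chr5:107900483-107900547, plus strand: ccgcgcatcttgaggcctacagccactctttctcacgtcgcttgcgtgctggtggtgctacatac

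On the deposited scale the ribosomal protein genes shared a level that shifted from tumour to tumour. The median over the members of a tumour ran from -0.81 in tumour 655 to 1.00 in tumour 641, with a median of -0.14 over the 21 tumours. Tumour 641 was the highest of all tumours for 41 of the 66 members and tumour 655 the lowest for 51, which would read as 641 lowest and 655 highest with the sign turned. Tumours 638, 639, 640, 641, 643 and 667 formed the upper end, between 0.49 and 1.00, with 61 to 63 of 66 members above 0 in each. At the lower end, tumours 655, 660 and 662 lay between -0.81 and -0.52, with 4 to 7 members above 0. Both arrays of a tumour put the members' median on the same side of 0 in 17 of 21 tumours. They differed by a median of 0.30 and at most 0.88, while the standard deviation over tumour means was 0.52.

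The common level was much less well measured once each array had been centred. The members' median then ran from -0.50 in tumour 655 to 0.82 in tumour 641, with a median of -0.067, and only 9 tumours had both arrays on the same side of 0. Within a tumour the arrays differed by a median of 0.47 and at most 1.27. The pooled standard deviation of an array about its tumour was 0.51, above the standard deviation of 0.37 over tumour means. On the deposited scale the same array error was 0.29. The array median that centring removes itself differed between the arrays of a tumour by a median of 0.73, more than the members' median did. Tumours 638, 640 and 641 were high on both scales and on both arrays, at 0.50 or above on each of their 6 centred arrays except for 0.49 on an array of tumour 640.

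**Figure D1:**
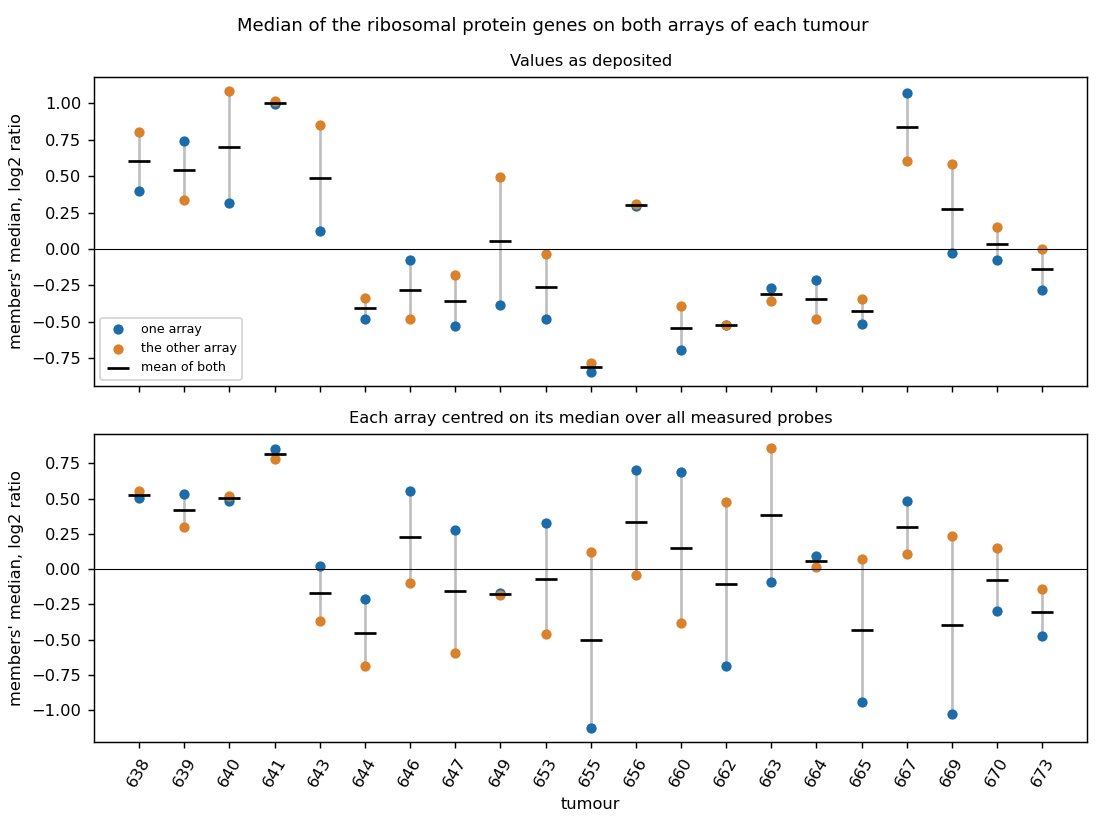
Median log2 ratio of the ribosomal protein genes on each array (points), with the mean of both arrays (black bar), for the 21 tumours on the x axis; the upper panel has the values as deposited and the lower panel those centred on the array median. The arrays of a tumour lie closer together in the upper panel (median difference 0.30) than in the lower one (0.47).

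Slide position was recorded only through running numbers in the array titles, which fall into 4 groups of slides; the labels do not say what the numbers stand for. In the third group, the 5 tumours with both arrays in it had members' medians from -0.81 to 0.30 as deposited and from -0.50 to 0.39 centred. In the fourth, the 8 such tumours had medians from -0.35 to 1.00 as deposited and from -0.40 to 0.82 centred. The groups overlapped on both scales. Since 6 tumours had arrays in different groups and all others in a single one, slide group and tumour are largely the same division of the arrays. The part of slide group in the common level was not tested beyond the fits below.

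Between tumours, 38 of the 66 members differed as deposited in limma's moderated F test (Benjamini-Hochberg adjusted p below 0.05 over all genes), against 19.5% of all 7629 genes. These were 22 of 38 large-subunit genes, 13 of 22 small-subunit genes and 3 of 6 paralogues or associated genes. The p-values measure the error between hybridisations of the same RNA, not the spread between animals. With each array centred, 2 members differed (Rpl22 and Rpl32), against 20.3% of all genes, so 36 calls of 38 did not survive removal of the array median. With a dye term in the model 58 members were called, against 45.6% of all genes. With a term for slide group 6 were called (Rpl22l1, Rpl23, Rpl26, Rpl32, Rpl38 and Rps27l), against 8.76% of all genes. The members' excess over other genes in this test was therefore seen as deposited, with or without a dye term. It was not seen on the centred scale or with the slide-group term. Leaving out single arrays gave 24 (without an array of tumour 641) to 45 calls as deposited, with 25 where an array of tumour 655 was left out.

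Around their common level the members varied little. The residual standard deviation of an array about its tumour had a median over members of 0.41 as deposited and 0.60 centred. Over all genes it was 0.91 and 0.75. The standard deviations over tumours that follow are of means of 2 arrays and include this array error. The median standard deviation over tumours was 0.42 for a member and 0.69 for all genes on the centred scale, and 0.56 and 0.78 as deposited. With the members' own median subtracted from each array, the typical member's standard deviation dropped to 0.21, while that of all genes was 0.78. The residual of an array about its tumour was then 0.31 for members and 0.83 for all genes. That subtraction takes out what the members share and not what other genes share, so the contrast follows in part from the step itself. No other set was centred on its own median. The mean correlation between pairs of members over the 21 tumours was 0.79 as deposited and 0.65 centred, beside 0.27 and 0.12 for pairs among 3375 genes with complete values. The 66 measured genes of the mitochondrial ribosome, a separate particle, had means of 0.59 and 0.37. Each member was also set against the mean of the others on the centred scale: the median correlation was 0.886, with 52 members over 0.8 and 5 under 0.5 (Rpl23, Rpl32, Rps2, Rps20 and Rps26). Rpl5 had the highest correlation, 0.986. These correlations share arrays and the centring of those arrays, and are given as a description.

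**Figure D2:**
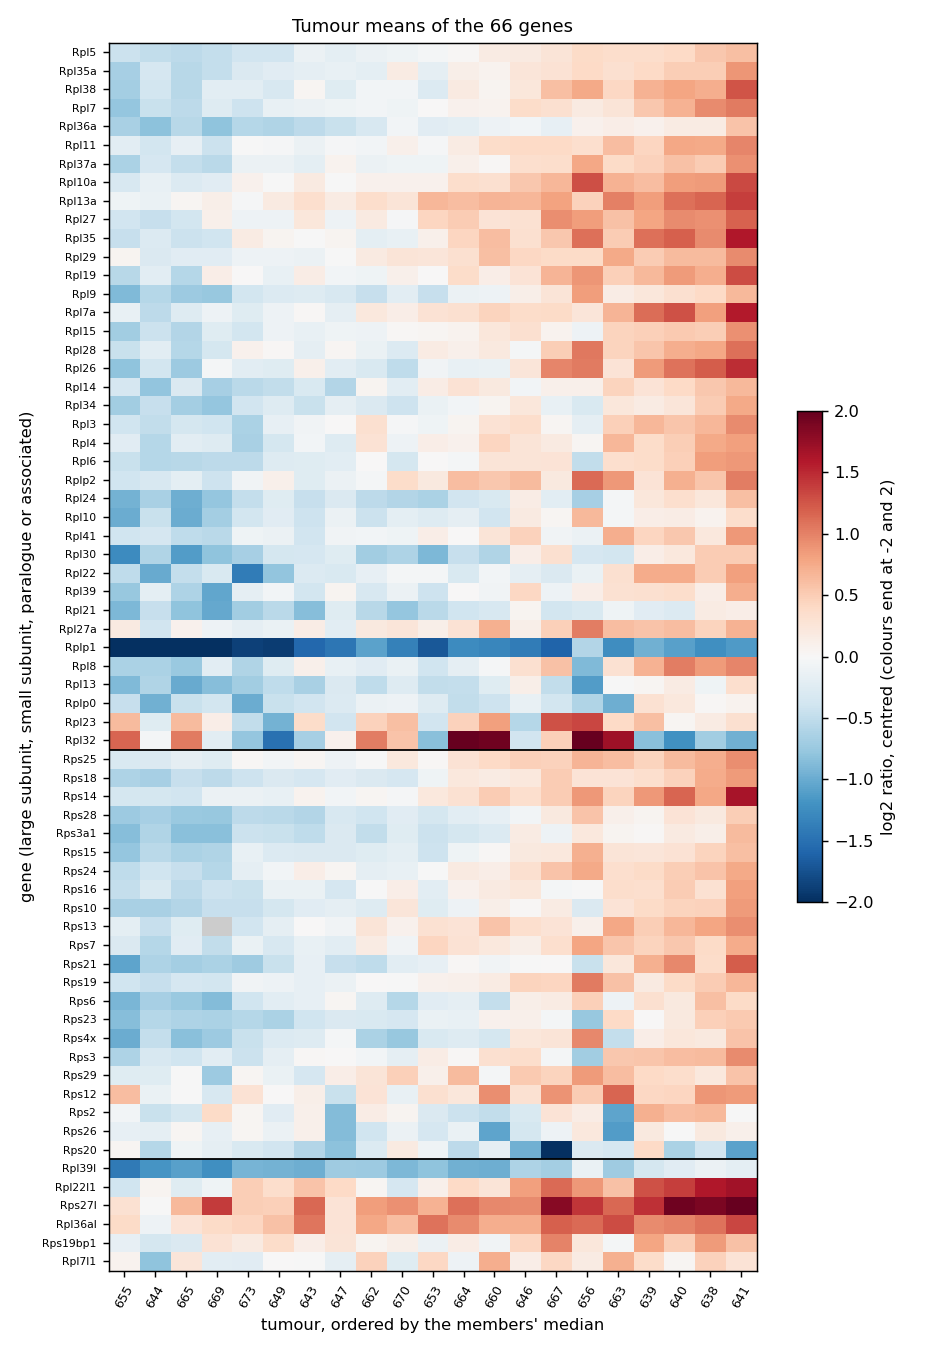
Centred log2 ratios of the 66 genes (rows, by subunit and within it by correlation with the other members) in the 21 tumours (columns, from the lowest to the highest members' median); grey marks a missing value and the colours end at -2 and 2. Most rows shift together from tumour 655 to tumour 641, while Rpl32, Rpl23, Rps2, Rps26 and Rps20 at the foot of their blocks do not, and Rplp1 is low throughout.

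The departures from the common level that passed a test were those of Rpl32, Rpl23, Rps27l and Rpl22l1. After subtraction of the members' median, these 4 of 66 differed between tumours in limma's moderated F test, against 29.8% of all genes. Since the subtraction removes the common level of the members only, these shares are not on like terms. The remaining 62 members did not pass, which does not show that they were equal in all tumours. Rps20 (range 3.03 against the members' median), Rps2 (2.21) and Rps26 (1.97) did not pass although their ranges were wider than those of Rpl23 (1.93), Rps27l (1.37) and Rpl22l1 (1.33). With the slide-group term, Rpl32 was the only member that differed from the others, against 26.9% of all genes. Leaving out single arrays gave 3 to 9 members, the latter without an array of tumour 656.

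Rpl32, a large-subunit protein, had the widest range of any member. Its centred level ran from -1.49 in tumour 649 to 3.42 in tumour 656, with a median of -0.046 and a standard error of 0.55 for a tumour mean of 2 arrays. It was above 1 in the 7 tumours 655 (1.16), 656 (3.42), 660 (1.95), 662 (1.03), 663 (1.69), 664 (2.89) and 665 (1.03). Both arrays were above 1 in tumours 656, 660, 663 and 664. A single array was in tumours 655 (0.025 and 2.297), 662 (0.211 and 1.845) and 665 (0.248 and 1.816). The tumour mean of Rpl32 was below 0 in 11, among them tumours 638 to 641 at -0.69, -0.84, -1.22 and -0.96, where the other members were highest. All 7 tumours above 1 had at least 1 array in the third slide group, as did 8 tumours in all, the eighth being tumour 653 at -0.84. The 13 tumours with no array in that group ran from -1.49 to 0.58. The gene's level thus moved with slide group, whose part in it was not tested beyond the limma fits with a slide-group term (adjusted p = 0.0223 as deposited and 0.000437 against the members' median). The adjusted p was 0.000591 as deposited, 0.000485 centred and 1.5e-06 against the members' median, and each of the 10 alternatives kept the call. Its correlation with the mean of the other members was -0.07. A single probe stood for the gene.

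Rpl23, a large-subunit protein of the subunit interface that can also bind Mdm2, was measured by 2 probes. The first ran from -1.77 in tumour 649 to 1.98 in tumour 656, and the second from -0.29 in tumour 673 to 1.40 in tumour 639. They correlated at 0.334 with each other over the 21 tumours. The first probe correlated with Rpl32 at 0.805, the second at 0.012, and both with Myc at 0.69. The probes thus disagreed on which tumours were high, and the gene's average, from -0.94 in tumour 649 to 1.33 in tumour 656 with a median of 0.37, mixes them. Against the members' median the adjusted p of the average was 0.0163.

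Rps27l and Rpl22l1, paralogues of Rps27 and Rpl22, stood above the reference by more than most members, and by amounts that varied. Rps27l, known as a p53-induced gene, ran from -0.011 in tumour 644 to 2.08 in tumour 641, with a median of 0.97. Rpl22l1, whose level is known to be held down by Rpl22, ran from -0.40 in tumour 655 to 1.67 in tumour 641, with a median of 0.40. Both were highest in tumours 638, 639, 640 and 641, at 1.46 to 2.08 for Rps27l and 1.28 to 1.67 for Rpl22l1, although tumour 667 reached 1.82 for Rps27l. They correlated at 0.771 with each other, and Rpl22l1 correlated with Rpl22 at 0.622. The adjusted p against the members' median was 0.0206 for Rps27l and 0.0426 for Rpl22l1. The second call is weak: it was lost in 30 of the 42 fits that left out an array.

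**Figure D3:**
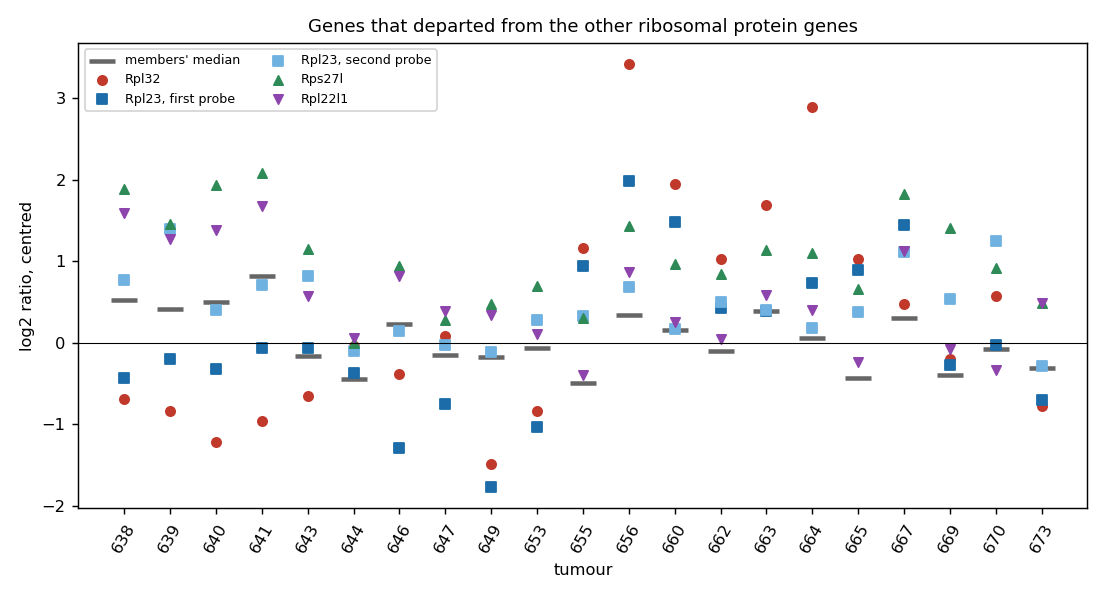
Centred log2 ratios of the genes whose departure from the common level passed the test, by tumour, with both probes of Rpl23 shown separately and the members' median as grey bars. Rpl32 is above 1 in 7 tumours, from 655 to 665, and the first probe of Rpl23 is lowest in tumour 649 and highest in tumour 656, as Rpl32 is.

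Other members of wide range were Rps20, Rpl26 and Rps21. Rps20, a small-subunit protein, ran from -2.19 in tumour 667 to 0.40 in tumour 639 with a median of -0.34, and its correlation with the other members was -0.30. Its low value in tumour 667 came from arrays at -3.14 and -1.25, and it did not differ between tumours on either scale (adjusted p 0.709 and 0.395 in limma's moderated F test). Rpl26, which can also bind the p53 transcript, ran from -0.80 in tumour 655 to 1.48 in tumour 641, and Rps21 from -1.06 in tumour 655 to 1.20 in tumour 641. Both followed the other members, at correlations of 0.894 and 0.887. The narrowest ranges were those of Rpl5 (1.13), Rpl21 (1.19) and Rpl29 (1.24), all smaller than the median range of 1.54 over members and 2.62 over all genes.

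Set against the reference RNA, most ribosomal protein genes lay close to the array median. The median over tumours was within 0.5 of it for 62 of 66 members (93.9%), beside 69.7% of all genes. The medians of members ran from -1.40 to 0.97, with a middle value of 0.004. In limma's test of the mean of 21 tumours against 0 on the centred scale, 12 members (18.2%) were above it, against 17% of all genes, and 10 (15.2%) below it, against 25.8% of all genes. As deposited the split was 5 above (7.58%) and 7 below (10.6%), against 13.7% and 23.1% of all genes. With quantile normalisation it was 9 (13.6%) and 12 (18.2%), against 17.8% and 24.6%. The share below was smaller than that of all genes on each scale, and the share above was near it centred and smaller on the others.

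The large subunit held the lowest level of any member, that of Rplp1. Rplp0, Rplp1 and Rplp2 form the stalk that recruits elongation factors to the ribosome, and they did not share a level. Rplp1 was below 0 in all 21 tumours, from -2.23 in tumour 655 to -0.59 in tumour 656, with a mean of -1.48 (standard error 0.10, n = 21 tumours, limma adjusted p = 1.3e-10). Rplp2 ran from -0.42 to 1.14 with a median of 0.20, and its mean did not pass the test (adjusted p = 0.0603). Rplp0 ran from -0.99 to 0.31 with a median of -0.37, and passed (adjusted p = 0.00416). The pair of probes for Rplp0 correlated at 0.0048 over the tumours measured by both, with a range of 2.76 for one and 1.86 for the other, and the call was lost when only the probe with more values was kept.

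Rpl5 and Rpl11, which enter the ribosome together with 5S ribosomal RNA, followed the other members closely, at correlations of 0.986 and 0.954. Rpl5 ran from -0.53 in tumour 665 to 0.60 in tumour 641 with a median of -0.038, and Rpl11 from -0.43 in tumour 669 to 0.97 in tumour 641 with a median of 0.10. Neither mean passed the test against the reference. Both were among the 38 genes that differed between tumours as deposited, with limma adjusted p of 0.0345 and 0.0295.

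Of the other large-subunit genes, Rpl13a, a part of the complex that silences inflammatory transcripts, was the highest structural member, from -0.13 in tumour 644 to 1.39 in tumour 641 with a median of 0.46 (mean 0.50, standard error 0.10, limma adjusted p = 0.000464), and was above 0 in 18 of 21 tumours. Rpl22, which binds structured RNAs and is lost in some leukaemias, ran from -1.39 in tumour 673 to 0.82 in tumour 641 with a median of -0.18. Its 4 highest tumours were 638, 639, 640 and 641, at 0.51 to 0.82, and it was the only member besides Rpl32 to differ between tumours both as deposited (adjusted p = 0.00536) and centred (0.0355). With the slide-group term it did not pass (0.063). Rpl38, needed for translation of Hox transcripts in the embryo, ran from -0.68 in tumour 655 to 1.25 in tumour 641 with a median of 0.041. It differed between tumours as deposited (adjusted p = 0.00244) and with the slide-group term, but not when centred (0.541).

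Rpl3, at the peptidyl transferase centre, ran from -0.63 to 0.95 with a median of 0.005, and Rpl10, which joins the subunit late, from -0.997 to 0.65 with a median of -0.19. Rpl10a ran from -0.31 to 1.32 with a median of 0.17, and its mean of 0.33 passed the limma test (adjusted p = 0.018). Rpl24, at the interface of the subunits, ran from -0.98 to 0.60 with a median of -0.38 and passed in the other direction (adjusted p = 0.0165). Further members at the lower end were Rpl13, from -1.11 to 0.34 with a median of -0.49 (adjusted p = 0.00181), and Rpl21, from -1.03 to 0.16 with a median of -0.40 (adjusted p = 0.00044). These 4 levels, together with that of Rpl13a, are small beside the range of each gene over the tumours.

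The 22 small-subunit genes lay between medians of -0.34 (Rps20) and 0.30 (Rps12). Only Rps12 (4.55%) was called above the reference, against 17% of all genes, and Rps20 and Rps3a1 (9.09%) below it, against 25.8%. The probes of Rps12 correlated at 0.347 with each other and had medians of 0.17 and 0.50. Its call was lost when only the probe with more values was kept. Rps6, the S6 kinase substrate, ran from -0.92 in tumour 655 to 0.60 in tumour 638 with a median of -0.18. It was called between tumours as deposited (limma adjusted p = 0.00628) and not centred (0.916). Rps3, at the mRNA entry and also a DNA repair factor, ran from -0.69 to 0.95 with a median of 0.003, and Rps2 from -1.05 to 0.71 with a median of -0.0055. Rps2 correlated with the other members at only 0.29. Rps14 and Rps19, whose loss of a copy causes failure of red cell production in people, ran from -0.39 to 1.65 and from -0.47 to 1.04. Rps4x, encoded on the X chromosome, ran from -0.99 to 0.96. Rps26 was low in tumour 663, at -1.12, and correlated with the other members at 0.10.

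The 6 paralogues and associated genes held the highest levels and the second lowest. Rps27l had a mean of 1.05 (standard error 0.13, limma adjusted p = 1.11e-06) and was above 0 in 20 of 21 tumours. Rpl36al, a retrogene copy of Rpl36a, had a mean of 0.77 (standard error 0.10, adjusted p = 1.33e-06) and was also above 0 in 20 of 21, with tumour 644 at -0.10. Its parent Rpl36a had a median of -0.19. Rpl39l, the paralogue of Rpl39 best known from male germ cells, was below 0 in all 21 tumours, from -1.41 in tumour 655 to -0.12 in tumour 638, with a median of -0.81 (adjusted p = 1.12e-06). Its parent Rpl39 had a median of -0.070. Rpl22l1 was called above the reference (adjusted p = 0.00329), as was Rps19bp1, which encodes a binding partner of Rps19, more weakly (0.0471). Rpl7l1, a factor in ribosome assembly, had a median of 0.14 and was not called. Near-identical copies can share probe signal on such arrays, and cross-hybridisation between paralogues was not tested.

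**Figure D4:**
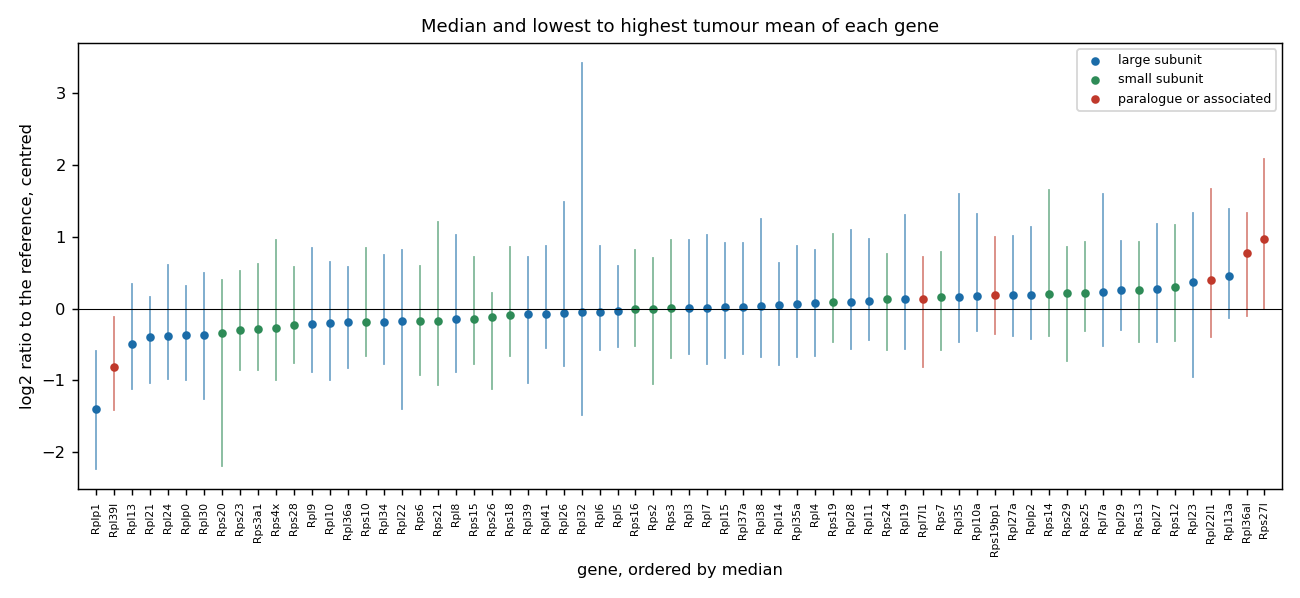
Median (point) and lowest to highest tumour mean (line) of the centred log2 ratio to the reference for each of the 66 genes, ordered by median and coloured by subunit. Most medians lie within 0.5 of 0, with Rplp1 and Rpl39l below that band and Rpl36al and Rps27l above it.

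Myc, the transgene of the model, fell into separate ranges: 16 tumours lay at 1.65 or above, and 5 (644, 646, 647, 649 and 673) at -0.21 or below. Whether the probe reads the transgene, the mouse's own gene or both is not given in the sources used here. Markers of several cell types, but not of all, moved with the same gap. The median of 11 measured epithelial markers was 0.66 to 2.89 in the 16 tumours and -0.90 to 0.52 in the 5, and that of 9 mesenchymal markers was -4.27 to -1.88 in the 16 and 0.62 to 1.67 in the 5. The median of 7 macrophage markers was -3.26 to 1.44 and 2.26 to 2.58. Hba-a1, the only erythroid marker measured, was 1.05 to 4.77 in the 16 and 4.80 to 8.65 in the 5. The median of 4 skeletal muscle markers was 2.55 to 6.01 in the 5, with no range available for the 16. Acta1 and Mylpf among these markers, like Hba-a1, had a negative slope on Myc that passed limma's test. Of the epithelial markers 6 passed it, 5 with a positive slope and 1 with a negative one. Kdr, the only endothelial marker measured, overlapped, at -0.73 to 1.40 in the 16 and -0.53 to 1.12 in the 5. For adipocyte and for T and NK cell markers, 2 of each measured, no range was available for the 16. No phenotype is labelled, and the part of cell type in the slopes below was not tested.

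The common level of the ribosomal protein genes did not separate these tumours. The members' median was -0.50 to 0.82 in the 16 tumours with more Myc and -0.45 to 0.23 in the 5 with less, so the ranges overlapped. Slopes of centred tumour means on Myc were positive for 61 of the 66 members, beside 43.4% of all genes, and the median slope was 0.12 for members and -0.038 for all genes. In limma's test of the slope 4 members were called positive, against 6.5% of all genes, and no member negative, against 16.9% of all genes. Another 8 members had an unadjusted p below 0.05 and did not pass the adjustment. On the centred scale the share of positive calls was therefore near that of all genes.

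Rpl23 had the strongest relation, a slope of 0.39 per log2 unit of Myc (standard error 0.072, limma adjusted p = 0.000312). Its level was -0.38 to 1.33 in the 16 tumours and -0.94 to -0.24 in the 5, and the highest values were those of tumours 656 (1.33) and 667 (1.28), which also had the most Myc (3.33 and 3.54). The arrays of tumour 656 were far apart for Rpl23, at 2.595 and 0.07, and those of tumour 667 stood at 1.378 and 1.184. The call was kept in 10 of 11 alternatives, among them the 8 tumours with both arrays in the fourth slide group (slope 0.45, limma adjusted p = 0.0172). In that fit 2.32% of all genes were called positive. Those 8 tumours include 647, 649 and 673 from the 5 with less Myc, so the fit still spans that division. Rps27l had a slope of 0.30 (adjusted p = 0.0148), Rpl27a of 0.21 (0.0166) and Rpl36al of 0.20 (0.0308). Their levels in the 16 and the 5 tumours were 0.30 to 2.08 and -0.011 to 0.94 for Rps27l, -0.10 to 1.02 and -0.39 to 0.11 for Rpl27a, and 0.27 to 1.34 and -0.10 to 0.73 for Rpl36al, which overlap in each. The first probe of Rpl27a correlated with Myc at 0.80 and the second at 0.38, and they correlated with each other at 0.289. Without the 2 tumours farthest from the median of Myc, only Rpl23 was still called (slope 0.46, limma adjusted p = 0.00123). The share of all genes called positive was also lower there, at 2.58% against 6.5% with all tumours.

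Within the 16 tumours with more Myc, a split chosen after seeing the data, no member was called for Myc by limma, with 3 at an unadjusted p below 0.05, and 0.0262% of all genes were called. The slope of Rpl23 there was 0.49, larger than over all 21 tumours, with an adjusted p of 0.314. Those of Rps27l, Rpl27a and Rpl36al were 0.25, 0.20 and 0.23. The slopes of the 4 genes were thus of similar size within the 16 tumours, where none passed. On the deposited scale 11 members (16.7%) were called positive, against 9.98% of all genes, and none negative, against 6.41% of all genes, with Rpl14, Rpl22, Rpl27, Rpl4, Rpl7l1, Rps12 and Rps7 added to the 4, and 42 had an unadjusted p below 0.05. On that scale the median slope was 0.21 for members and 0.068 for all genes. With quantile normalisation 7 members (10.6%) were called positive, against 8.85% of all genes. Leaving out single arrays gave 2 (without an array of tumour 656 or of 647) to 10 calls (without the other array of tumour 647), and 7 to 9 without an array of tumours 644, 646, 656, 667, 669, 670 or 673.

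**Figure D5:**
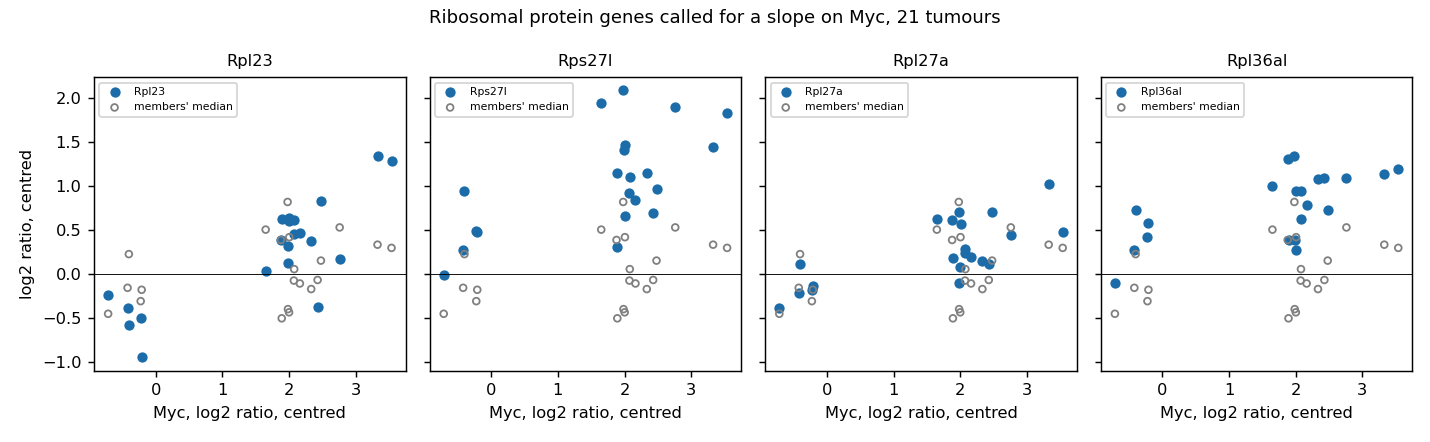
Centred log2 ratio of each of the 4 genes called for a slope on Myc (filled points) and of the members' median (open points) against the centred log2 ratio of Myc, for 21 tumours. The tumours lie in groups of 5 and 16 on the Myc axis with none between -0.21 and 1.65.

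Vim, a mesenchymal filament gene, and Csn2, the milk protein beta-casein, follow the same division of the tumours in part, so their slopes are not independent of those on Myc. Vim was 0.26 to 1.23 in the 5 tumours with less Myc and below -3 in all others. On Vim no member had a positive call, against 17.6% of all genes, and 3 had a negative one, against 7.52% of all genes: Rpl23 (slope -0.21, limma adjusted p = 0.00094), Rps27l (-0.17, 0.0226) and Rpl27a (-0.11, 0.0385). Members had slopes below 0 in 60 of 66 cases, and 54.8% of all genes had slopes above 0. The call was kept in 10 of 11 alternatives for Rpl23, in 6 for Rps27l and in 2 for Rpl27a. That of Rpl27a was lost when only the probe with more values was kept. Within the 16 tumours none of the 3 was called, 0 members had an unadjusted p below 0.05, and 0.223% of all genes were called. Single arrays moved the number of calls from 1 (without an array of tumour 646 or 655) to 6 (without an array of tumour 669).

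Csn2 had values from -1.12 in tumour 646 to 7.43 in tumour 663, spread over the 16 tumours. On Csn2 4 members had a positive slope that passed the test, against 6.42% of all genes, and none a negative one, against 7.9% of all genes. They were Rpl14 (slope 0.11 per log2 unit, limma adjusted p = 0.0221), Rpl4 (0.10, 0.0228), Rps13 (0.097, 0.0388) and Rps12 (0.099, 0.0442). Rpl14 and Rpl4 each kept the call in 5 of 11 alternatives, Rps13 in 3 of 10 and Rps12 in 2 of 11. On the centred scale none of these was called for Myc, and 7.81% of all genes were called for both Myc and Csn2; as deposited Rpl14, Rpl4 and Rps12 were called for Myc. That the slopes on the 2 genes differ was not tested. No member was called for Csn2 by limma as deposited (0 at an unadjusted p below 0.05), with quantile normalisation (10), without the 2 tumours farthest from the median of Csn2 (3), within the fourth slide group (33) or within the 16 tumours (11). Positive calls among all genes were 1.18% as deposited, 5.52% with quantile normalisation and 4.26% without those 2 tumours. Within the fourth slide group they were 0.0131%, and within the 16 tumours 0.0262%. Almost no gene was called in these last fits, so the lack of members there says nothing particular to them. With a term for slide group the calls were Rps23 and Rps3, both positive, against 3.07% of all genes. Outside those last fits, the calls on Csn2 thus changed with the scaling, the slide term and the tumours left out. Single arrays moved their number from 0 (without an array of tumour 660) to 11 (without an array of tumour 663), and arrays of tumours 646, 647, 655, 665 and 669 also moved it by over 1.5 times.

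Genes that act with the ribosome were followed through lists of names. Of 35 measured ribosome biogenesis genes, which process ribosomal RNA and assemble the subunits, 8 (22.9%) differed between tumours as deposited, against 19.5% of all genes, and 6 (17.1%) centred, against 20.3%. On Myc 8 of them (22.9%) had a positive call, against 6.5% of all genes, and none a negative one, against 16.9% (Bysl, Ncl, Nhp2, Nolc1, Nop2, Nop56, Npm1 and Rrp1b), and the median slope was 0.16. Of 66 measured genes of the mitochondrial ribosome 15 (22.7%) had a positive call on Myc and 2 (3.03%) a negative one, with the same median slope of 0.16. Of these mitochondrial genes 31 (47%) were called above the reference, against 17% of all genes, and 3 (4.55%) below, against 25.8%. Among 23 translation initiation factors 9 (39.1%) differed between tumours as deposited and 1 (4.35%) centred (Eif3b), and 1 (4.35%) was called for Myc, with a positive slope (Eif3i). Among 10 elongation factors and companions 3 (30%) differed as deposited (Eef1a1, Eef1a2 and Naca), and none was called centred or for Myc (0 at an unadjusted p below 0.05 in either limma fit). Rpsa, a small-subunit protein under another name, was called between tumours as deposited and not centred, as most of the structural members were.

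The genes outside the family with centred levels closest to the mean of the members over 21 tumours were 4930478E11Rik (r = 0.975), Gars (0.953), Nsmf (0.952), Ubac2 (0.951) and Rsl1d1 (0.948). Gars encodes the transfer RNA synthetase for glycine, and Rsl1d1 a nucleolar protein with a ribosomal L1 domain. Each lay above the members' own median of 0.886, and 10 members exceeded Rsl1d1, of which Rpl5 alone exceeded 4930478E11Rik. Nothing on shared control follows from these correlations.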

How the data were processed

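RNA from 21 tumours was measured on 42 arrays. The deposited values are log2 ratios between the dyes, a scale read from the values; for background correction, normalization and dye assignment the method is "not given in the sources used here". In all, the table had 22800 probes, 726515 values and 24.1% blank cells. A repeated top value of 16.61 (15512 values, 2.14%) was set missing. Genes were named from the platform annotation (16874 probes with 1 symbol, 134 with several, 5792 with none), and probes of a gene were averaged. Arrays were turned by the first eigenvector of the correlations between the 21 pair differences, on probes naming no member; including member probes gave the same orientation for 42 arrays. After turning, arrays of a single orientation correlated at -0.239 or above.

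Between-tumour tests used limma 3.58.1 (R 4.3.3) on all 42 arrays with tumour as a factor (moderated F over 20 contrasts). Levels and slopes used 21 tumour means on centred arrays, so the tumour was the replicate there. P-values were adjusted by Benjamini-Hochberg over 7629 genes, with a threshold of 0.05. The fits were tested on simulated data. The number of arrays limits the precision, and no counts exist. Alternatives were centring or the deposited scale, quantile normalisation, a dye term, slide group (running numbers split at gaps over 1000), the top value kept, other minimums of measured tumours, the probe with most values, and leaving out arrays or tumours. Named genes were the members called, the extremes in range and level, a list by function, and the 5 non-members most correlated with the members' mean. The members and all lists were chosen with earlier results of these data known. Promoter letters came from RefSeq on GRCm38.p6, and figures from matplotlib.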

Additional observations from a re-analysis of the deposited data

How the results depend on the processing

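Of 3888 values of single genes under alternatives other than leaving out single arrays, 3564 kept their direction and side of the threshold, 244 lost a call, 79 gained a call and 1 changed direction: the slope of Rpl27a on Vim was 0.00145 within the 16 tumours with more Myc. Of the 59 counts of members under those alternatives, 34 stayed within 1.5 times the count in the report. The counts that moved were these. Members differing between tumours, 38 as deposited, were 2 centred, 2 with quantile normalisation, 58 with a dye term, 4 with a dye term and centred arrays, 6 with slide group as a term and 25 with a minimum of 10 tumours. Members differing from the other members, 4 at first, were 1 with slide group and 2 with that lower minimum. Members off the reference level, 22 centred, were 12 as deposited. Members related to Myc, 4 centred, were 11 as deposited, 7 with quantile normalisation, 1 without the 2 farthest tumours, 1 in the slide group with 8 whole tumours and 0 within the 16 tumours. Those related to Vim, 3 centred, were 1 as deposited, 1 in that slide group and 0 within the 16. Those related to Csn2, 4 centred, were 0 as deposited, 0 with quantile normalisation, 2 with slide group, 2 with the lower minimum, 7 without tumour 656, 0 without the 2 farthest tumours, 0 in that slide group and 0 within the 16. The share of all genes called moved as well. Between tumours it was 19.5% as deposited, 20.3% centred, 45.6% with a dye term and 12% with the lower minimum. Against the other members it was 29.8% at first, 26.9% with slide group and 20.3% with the lower minimum. For Myc it was 23.4% centred, 16.4% as deposited, 12% in that slide group and 0.0262% within the 16. In that order it was 25.1%, 18.6%, 10.7% and 0.223% for Vim, and 14.3%, 10.3%, 0.0131% and 0.0655% for Csn2. The members' fall from 38 to 2 on centring between tumours had no like fall in all genes. The cause of these shifts was not tested. Leaving out single arrays, where the tumour's other array is assumed to vary like the rest, gave 24 to 45 members between tumours, 3 to 9 against the other members, 15 to 25 off the reference, 2 to 10 for Myc, 1 to 6 for Vim and 0 to 11 for Csn2. The split into 16 and 5 tumours was added after seeing the data. On the replicate numbers, no paired analysis was possible because the 2 arrays of a tumour are repeats of a single RNA, and their numbers pair nothing across tumours. The dye orientation, which was read from the data, does link arrays across tumours. The dye term takes it into account, and the main test between tumours did not. With that term the calls between tumours rose from 38 to 58 members as deposited, and from 19.5% to 45.6% of all genes. On centred arrays they were 4 members with it and 2 without.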
